A study of Mus musculus with 24 samples.

Results

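The 48 genes described here encode RNA polymerase I subunits, its factor Rrn3 and the nucleolar factors that turn its transcript into ribosomal subunits. Their mRNA was measured by RNA sequencing in mouse embryonic fibroblasts. They were taken as a list of symbols that was drawn up with earlier results of these data known, and not by a threshold on measured values, out of 45706 genes in the deposited count table. All 48 were found in the table and all 48 passed the filter on low counts, as did 16573 genes in all. By role, 4 are counted under RNA polymerase I, namely its subunits Polr1a, Polr1b and Polr1e, and Rrn3, which brings it to the rRNA promoter. A further 6 belong to the small nucleolar ribonucleoproteins (snoRNPs) and enzymes that modify rRNA, and 6 are nucleolar scaffold proteins and regulators. Another 15 belong to the small-subunit processome, 4 act late in small-subunit maturation and 13 assemble the large subunit.

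RNA polymerase I transcribes the repeated rRNA genes into one long precursor inside the nucleolus. Guide RNAs in snoRNPs direct methylation and pseudouridylation of that precursor, the small-subunit processome cleaves and folds its 5′ side, and a separate chain of factors builds the large subunit from its 3′ side. Many of these genes are known in mammals as targets of Myc, and their expression is highest in growing and dividing cells. Fibroblasts in culture proliferate, and ribosome production is among their largest biosynthetic costs.

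The fibroblasts came from E13.5 embryos of 4 genotypes, which the labels name Vhl/Rassf1a, Vhl, Rassf1a and WT. Vhl encodes the subunit of a ubiquitin ligase that recognises the hypoxia-inducible factors, and Rassf1a is an isoform of Rassf1, a microtubule-associated scaffold gene. Each genotype has 3 libraries named for Cre, labelled as knockout, and 3 named for GFP, labelled as control, which gives 8 groups and 24 libraries. The same 2 treatment labels are used for WT, so the WT Cre libraries carry no allele that the labels name. The labels do not say how Cre or GFP was delivered, which exons the alleles remove, or how many embryos or cultures the libraries of a group come from. The p-values therefore measure the spread between these libraries, which may be technical, and a difference between genotypes cannot be told apart from a difference between embryos or cultures.

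Libraries held 29934173 to 55849586 counts. Vhl mRNA averaged 2.10 ± 0.523 counts scaled to library size (CPM, a share of the normalised total) in Vhl/Rassf1a Cre against 22.0 ± 1.59 in Vhl/Rassf1a GFP, and 2.57 ± 0.257 in Vhl Cre against 26.7 ± 0.972 in Vhl GFP (SD, n = 3 each). It averaged 23.3 ± 0.948 CPM in WT GFP, so the Vhl GFP libraries were not lowered for Vhl. The gene count of Rassf1 covers all its isoforms and checks nothing about Rassf1a. The fibroblast markers were abundant in every library, and their summed level was 58119.7 to 60524 CPM in Vhl GFP and 40449 to 43652 CPM in WT GFP. Erythroid markers summed to at most 0.296 CPM in any library. Libraries Vhl/Rassf1a GFP 2 and Rassf1a GFP 1 stood apart from the other libraries of their groups in proportion to the GC content of genes (correlation across genes of 0.615 and 0.547, with -0.243 to 0.273 in the libraries of the other 6 groups). Over the 48 genes, the median deviation of these 2 libraries from their group was 0.01 on the log2 scale, inside the range of -0.06 to 0.05 over all 24 libraries, and single genes such as Rrp9 deviated by more.

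The starts of the genes were looked up first, since these genes moved together and many are described as Myc targets. A RefSeq promoter on GRCm38.p6, running from 250 bases before to 50 bases after the start, was found for 39 of the 48 genes. The palindrome CACGTG, an E-box that factors of the Myc family bind, was present in 10 of these 39 promoters (25.6%) and in 1135 of 11562 promoters of the same length (9.82%). It and the 2 motifs below were searched on both strands. The motif ACGTG, the core of the site of hypoxia-inducible factors, which every CACGTG contains, was in 13 of 39 (33.3%) against 25.1% of all. CCGGAAG, a core of ETS family sites, was in 15 of 39 (38.5%) against 16.9%. Each count says only which letters stand in these windows. The promoters of 6 genes are shown, 5 that hold CACGTG, given in capitals, and that of Dkc1, the gene with the largest fall, which does not. Of the 5, Utp20, Mybbp1a, Nop2 and Wdr43 fell in Vhl/Rassf1a Cre cells and Pes1 did not, where 35 of all 48 genes fell. The call of Nop2 was lost without library Vhl/Rassf1a GFP 2. Rrn3, the only one of the 10 genes with 2 such E-boxes, is not shown and was not called there. The motif and the change with Cre were not tested against each other. The windows are chr10:88826765-88827064, minus strand for Utp20, chr11:72441077-72441376, plus strand for Mybbp1a, chr6:125131633-125131932, plus strand for Nop2, chr17:71615965-71616264, plus strand for Wdr43, chr11:3963725-3964024, plus strand for Pes1 and chrX:75095604-75095903, plus strand for Dkc1.
Utp20: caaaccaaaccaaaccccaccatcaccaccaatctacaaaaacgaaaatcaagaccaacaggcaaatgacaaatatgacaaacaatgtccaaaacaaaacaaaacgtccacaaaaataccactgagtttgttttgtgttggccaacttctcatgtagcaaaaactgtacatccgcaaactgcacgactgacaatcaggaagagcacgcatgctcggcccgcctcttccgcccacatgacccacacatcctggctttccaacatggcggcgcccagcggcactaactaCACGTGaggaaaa
Mybbp1a: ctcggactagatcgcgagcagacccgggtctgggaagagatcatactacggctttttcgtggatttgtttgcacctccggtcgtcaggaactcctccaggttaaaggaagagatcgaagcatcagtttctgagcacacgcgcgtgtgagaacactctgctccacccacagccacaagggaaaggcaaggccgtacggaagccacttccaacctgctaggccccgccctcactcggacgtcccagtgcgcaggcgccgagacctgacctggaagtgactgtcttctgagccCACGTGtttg
Nop2: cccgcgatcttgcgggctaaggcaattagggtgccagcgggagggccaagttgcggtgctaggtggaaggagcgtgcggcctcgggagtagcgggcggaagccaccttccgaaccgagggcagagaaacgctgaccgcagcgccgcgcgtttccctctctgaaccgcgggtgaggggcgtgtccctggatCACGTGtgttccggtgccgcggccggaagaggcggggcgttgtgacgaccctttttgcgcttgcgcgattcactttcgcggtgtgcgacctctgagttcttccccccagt
Wdr43: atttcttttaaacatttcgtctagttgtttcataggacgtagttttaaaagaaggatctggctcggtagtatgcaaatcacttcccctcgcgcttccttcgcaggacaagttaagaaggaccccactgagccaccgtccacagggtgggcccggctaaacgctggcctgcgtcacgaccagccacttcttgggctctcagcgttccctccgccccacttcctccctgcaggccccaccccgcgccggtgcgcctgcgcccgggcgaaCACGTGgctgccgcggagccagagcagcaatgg
Pes1: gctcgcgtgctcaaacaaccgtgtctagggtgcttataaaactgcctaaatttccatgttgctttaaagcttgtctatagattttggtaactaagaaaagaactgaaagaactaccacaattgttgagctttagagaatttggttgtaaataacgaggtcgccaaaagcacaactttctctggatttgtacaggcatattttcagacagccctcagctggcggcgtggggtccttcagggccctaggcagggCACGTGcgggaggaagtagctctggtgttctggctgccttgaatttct
Dkc1: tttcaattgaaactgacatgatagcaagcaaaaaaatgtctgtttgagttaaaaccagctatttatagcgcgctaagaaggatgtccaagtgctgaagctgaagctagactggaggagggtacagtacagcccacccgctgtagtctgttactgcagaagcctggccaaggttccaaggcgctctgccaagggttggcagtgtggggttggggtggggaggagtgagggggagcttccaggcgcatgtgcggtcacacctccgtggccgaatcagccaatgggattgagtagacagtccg
The first base of the E-box lies 37 bases after the start in Utp20, 40 after in Mybbp1a, 17 after in Wdr43 and 2 after in Pes1, and 60 before it in Nop2. These starts are those of RefSeq. The GENCODE start, from which gene positions were taken, lay within 100 bases for 34 of the 39 genes and at most 1346 bases away. For Wdr43 it is 71615895, before the window shown.

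Per kilobase of merged exons, the level of the 48 genes in WT GFP cells spanned a wide range. Npm1, a chaperone of the granular part of the nucleolus, was highest at 283 ± 18.9 CPM per kilobase (RPKM; SD, n = 3). Ncl, nucleolin, followed at 74.6 ± 5.35 RPKM, and Mybbp1a, a nucleolar Myb-binding protein, at 53.2 ± 2.03 RPKM. The lowest were Wdr12 at 3.25 ± 0.0436 RPKM, Dcaf13 at 3.72 ± 0.0330 RPKM and Rrp1b at 4.42 ± 0.177 RPKM, which act in large-subunit assembly, in the processome and again in large-subunit assembly. Merged exons of Wdr12 and Dcaf13 are 11955 and 10825 bases long, which lowers a value per length. Npm1 and Ncl together also carry much of the summed CPM of the list, so that sum follows them more than the other genes.

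Summed over the 48 genes, the level was lowest in Vhl Cre and highest in WT GFP. The sum averaged 3900.2 ± 52.2 CPM in Vhl/Rassf1a Cre, 3668 ± 27.0 in Vhl Cre and 3838 ± 48.5 in Vhl GFP. In the other 5 groups it averaged 4668 ± 90.5 CPM in Vhl/Rassf1a GFP, 4679.8 ± 102 in Rassf1a Cre, 4581 ± 75.9 in Rassf1a GFP, 4755 ± 137 in WT Cre and 4805 ± 97.9 in WT GFP (SD, n = 3 each). None of the 9 libraries of the first 3 groups reached any of the 15 others. In order of the sum, Vhl Cre lay below Vhl GFP with no overlap, Vhl GFP overlapped Vhl/Rassf1a Cre, and neighbours among the other 5 groups overlapped. No test was made of the sum. CPM is a share of the counts of a library, so fewer cells expressing a gene, less of its RNA per cell and a change in total RNA per cell cannot be told apart here.

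**Figure D1:**
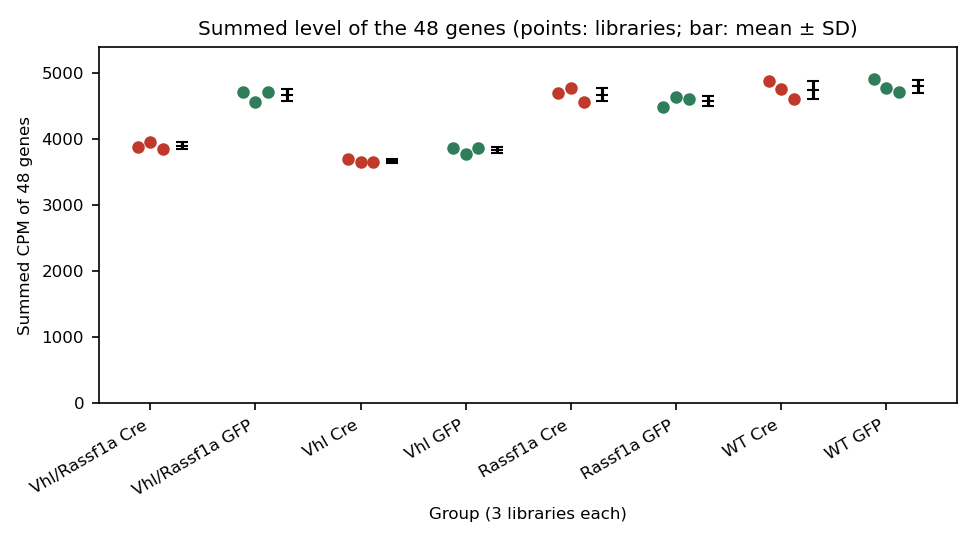
Summed CPM of the 48 genes (vertical axis, from 0) in each of the 24 libraries (points, red for Cre and green for GFP) by group, with the mean and SD of 3 libraries beside them. Vhl/Rassf1a Cre, Vhl Cre and Vhl GFP lie between 3651 and 3957 CPM, and the other 5 groups between 4496 and 4913 CPM.

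**Figure D2:**
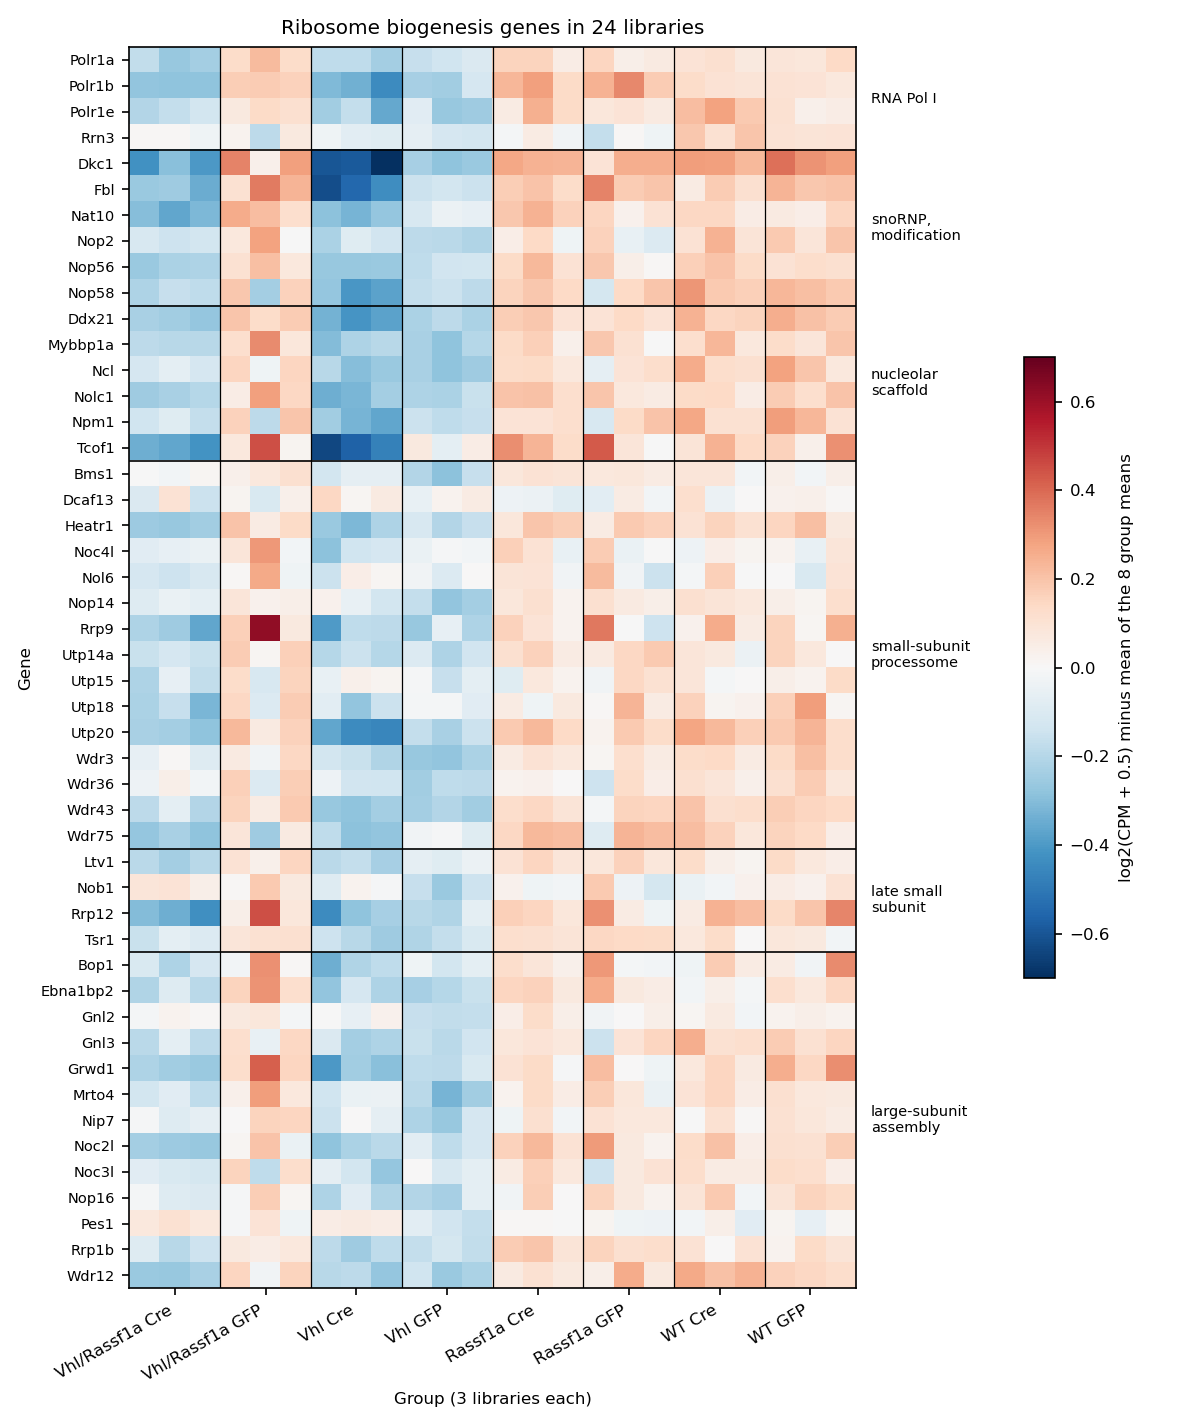
Log2 level of each of the 48 genes (rows, ordered by role) in each of the 24 libraries (columns, 3 per group), relative to the mean of the gene over all libraries. Most genes are lower (blue) in the 9 libraries of Vhl/Rassf1a Cre, Vhl Cre and Vhl GFP, and Pes1 and Dcaf13 show little of this.

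Most of these genes fell in Vhl/Rassf1a Cre cells. Of the 48, 35 fell relative to Vhl/Rassf1a GFP and none rose at an adjusted p under 0.05 (edgeR, Benjamini-Hochberg over all genes tested), where 29.7% of all tested genes were called and 14.8% were called lower. The median log2 fold change of the 48 was -0.26, against 0.00 over all genes tested, and the estimate was below 0 for 46. In 36 of them all 3 Cre libraries lay below all 3 GFP libraries, where 19.3% of all genes did so. By role, 6 of 6 snoRNP and modification genes fell, 5 of 6 nucleolar scaffold genes, 3 of 4 RNA polymerase I genes, 9 of 15 processome genes, 3 of 4 late small-subunit genes and 9 of 13 large-subunit genes. Without library Vhl/Rassf1a GFP 2, one of the 2 that stood apart, 35 were again lower and none higher, but Nop2, Bop1, Nip7 and Nop14 lost their calls and Npm1, Wdr3, Wdr36 and Noc3l gained them.

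Among the modification genes, Dkc1 (chrX:75095854-75109777) encodes dyskerin, the pseudouridine synthase of H/ACA snoRNPs and a part of telomerase. It had 32.6, 35.7 and 33.1 CPM in Vhl/Rassf1a Cre against 56.1, 45.0 and 53.7 CPM in Vhl/Rassf1a GFP. The groups did not overlap, and Dkc1 fell by 0.61 on the log2 scale (SE 0.067, adjusted p = 2.67e-07), that is by 34.5%. Fbl (chr7:28169710-28179269), the methyltransferase fibrillarin of box C/D snoRNPs, had 47.8, 48.3 and 45.1 CPM in Vhl/Rassf1a Cre against 61.9, 74.0 and 67.9 CPM in Vhl/Rassf1a GFP. Fbl fell by 0.53 (SE 0.061, adjusted p = 5.16e-07), again with no overlap. Nat10, which acetylates cytidines of 18S rRNA, had 39.3, 37.6 and 38.8 CPM against 58.2, 56.3 and 52.6 CPM in the same order of groups and fell by 0.53 (SE 0.049, adjusted p = 1.78e-08). The box C/D core proteins Nop56 and Nop58 fell by 0.37 and 0.24, and Nop2, an rRNA cytosine methyltransferase, by 0.25. For Nop58 the groups overlapped, since library Vhl/Rassf1a GFP 2, one of those that stand apart, had 91.8 CPM. Without that library Nop58 fell by 0.36 (adjusted p = 0.00018) and Dkc1 by 0.70, while Nop2, at -0.16, was not called (adjusted p = 0.0658). Dkc1 and Utp14a lie on chromosome X, and none of 5 sex-linked genes was called in this comparison.

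Of the scaffold genes, Tcof1 (treacle), which links polymerase I transcription to rRNA modification and is mutated in human Treacher Collins syndrome, had 62.3, 61.3 and 58.9 CPM in Vhl/Rassf1a Cre against 83.1, 108 and 80.1 CPM in Vhl/Rassf1a GFP. Tcof1 fell by 0.57 (SE 0.11, adjusted p = 0.000196), and by 0.42 without library Vhl/Rassf1a GFP 2. Ddx21, a helicase of the nucleolus, had 155, 153 and 149.7 CPM against 207, 198 and 204 CPM in Vhl/Rassf1a GFP and fell by 0.41 (SE 0.039, adjusted p = 3.04e-08). Nolc1, a chaperone of snoRNPs, and Mybbp1a fell by 0.39 and 0.37. For the 2 most abundant genes the estimates were nearer 0. Ncl fell by 0.20 (SE 0.059, adjusted p = 0.0146), and Npm1 was not called at -0.20 (SE 0.081, adjusted p = 0.0708), with library Vhl/Rassf1a GFP 2 at 573 CPM just below the 3 Cre libraries (579 to 613 CPM). Without that library Npm1 fell by 0.31 (adjusted p = 0.00148) and Ncl by 0.25 (adjusted p = 0.0018).

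Of the 4 RNA polymerase I genes among the 48, 3 fell. Polr1b, the second largest subunit, had 24.8, 24.7 and 24.7 CPM in Vhl/Rassf1a Cre against 34.1, 34.2 and 33.8 CPM in Vhl/Rassf1a GFP and fell by 0.46 (SE 0.052, adjusted p = 4.32e-07). Polr1a, the largest subunit, had 75.7, 70.9 and 72.3 CPM against 93.4, 99.6 and 93.2 CPM in Vhl/Rassf1a GFP and fell by 0.39 (SE 0.045, adjusted p = 5.5e-07). Polr1e, a peripheral subunit, fell by 0.28 (SE 0.063, adjusted p = 0.00152), with 15.6, 16.1 and 16.5 CPM in Vhl/Rassf1a Cre against 19.0, 19.9 and 19.6 CPM in Vhl/Rassf1a GFP. In all 3 genes the groups were apart. Rrn3, which brings polymerase I to the rRNA promoter, had 81.4, 81.5 and 79.3 CPM in Vhl/Rassf1a Cre against 82.3, 71.2 and 85.0 CPM in Vhl/Rassf1a GFP, a log2 fold change of 0.02 with a 95% interval of -0.09 to 0.14.

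In the chains that build the subunits, Rrp9, Rrp12 and Grwd1 had the largest falls with all libraries in the fit. Rrp9, a protein of the U3 snoRNP in the processome, had 27.0, 26.4 and 24.3 CPM in Vhl/Rassf1a Cre against 35.4, 48.6 and 33.0 CPM in Vhl/Rassf1a GFP. It fell by 0.59 (SE 0.13, adjusted p = 0.000891), and by 0.40 without library Vhl/Rassf1a GFP 2. Rrp12, an export factor of pre-ribosomal subunits, had 30.3, 29.5 and 27.7 CPM against 38.6, 51.4 and 39.6 CPM in Vhl/Rassf1a GFP and fell by 0.57 (SE 0.098, adjusted p = 0.000101), or by 0.42 without that library. Grwd1, a chaperone of the ribosomal protein Rpl3, had 27.6, 27.1 and 26.8 CPM against 35.0, 43.2 and 35.8 CPM in Vhl/Rassf1a GFP and fell by 0.49 (SE 0.076, adjusted p = 2.91e-05), or by 0.38 without it. These 3 genes stayed past the threshold without that library. Among processome scaffolds, Utp20 fell by 0.40 and Heatr1 by 0.39. Without library Vhl/Rassf1a GFP 2 they fell by 0.44 and 0.42, as much as or more than the other 3, and Wdr12, of large-subunit assembly, fell by 0.41, past Rrp9 and Grwd1. The 6 processome genes that were not called, Nol6, Noc4l, Wdr3, Wdr36, Bms1 and Dcaf13, had log2 fold changes from -0.21 to -0.03.

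The 3 partners of the PeBoW complex, which is needed to process the large-subunit rRNA, gave different estimates. Wdr12 fell by 0.35 (SE 0.058, adjusted p = 5.53e-05) and Bop1 by 0.26 (SE 0.096, adjusted p = 0.0459). Without library Vhl/Rassf1a GFP 2 the log2 fold change of Bop1 was -0.14 and not called (adjusted p = 0.279). Pes1 had 89.0, 91.3 and 89.1 CPM in Vhl/Rassf1a Cre against 84.1, 90.5 and 83.0 CPM in Vhl/Rassf1a GFP, a log2 fold change of 0.06 with a 95% interval of -0.03 to 0.16. Differences between these genes were not tested. Gnl2, a nucleolar GTPase, and Nob1, the nuclease that makes the 3′ end of 18S rRNA, were likewise not called, at -0.04 and -0.02.

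**Figure D3:**
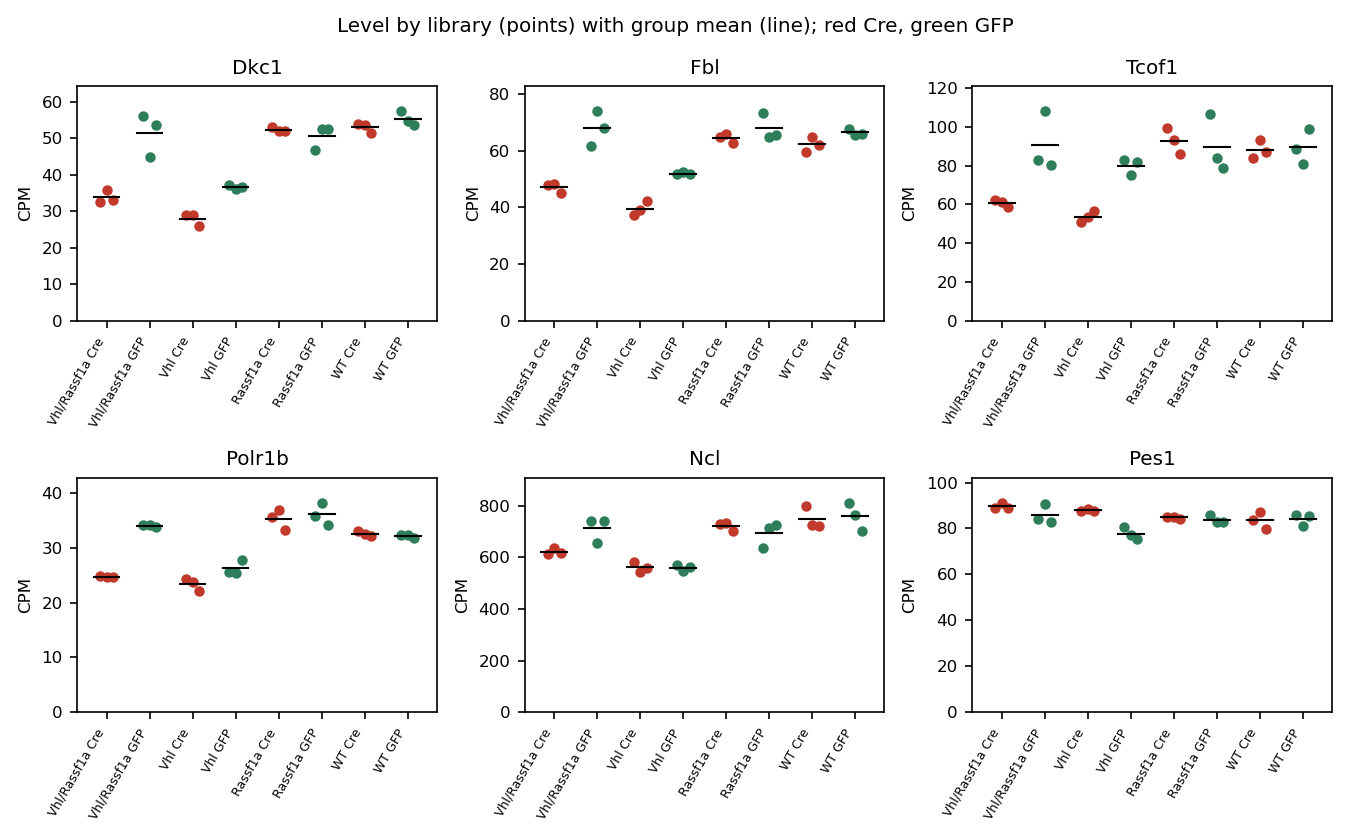
CPM of Dkc1, Fbl, Tcof1, Polr1b, Ncl and Pes1 in each library (points, red for Cre and green for GFP; every axis starts at 0) with the group mean as a line. Dkc1 is between 26.1 and 37.3 CPM in Vhl/Rassf1a Cre, Vhl Cre and Vhl GFP and between 45.0 and 57.5 CPM in the other 5 groups, while Pes1 lies between 75.4 and 91.3 CPM in all groups.

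Vhl GFP cells, whose Vhl mRNA was not lowered, were already lower for these genes than WT GFP cells. Of the 48 genes 38 were lower and none was higher, where 32.1% of all tested genes were called and 14.9% were called lower. The estimate was below 0 for all 48, with a median of -0.29, and the groups did not overlap for 44, where 23.7% of all genes lay apart in this direction. By role, 6 of 6 modification genes, 5 of 6 scaffold genes, 4 of 4 RNA polymerase I genes, 8 of 15 processome genes, 4 of 4 late small-subunit genes and 11 of 13 large-subunit genes were lower. This comparison sets controls of 2 genotypes side by side, which differ in embryo or culture as well as in alleles.

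Dkc1 had 37.3, 36.1 and 36.7 CPM in Vhl GFP against 57.5, 54.7 and 53.6 CPM in WT GFP and the groups did not overlap. The log2 difference was -0.59 (SE 0.067, adjusted p = 3.9e-07), the furthest from 0 of the 48. Ncl had 570.1, 548 and 562 CPM in Vhl GFP against 812, 764 and 704 CPM in WT GFP, a difference of -0.44 (SE 0.059, adjusted p = 3.91e-06). In both genes the groups lay well apart. Ddx21 had 155, 159 and 155 CPM against 216, 209 and 205 CPM in WT GFP (-0.42, SE 0.040, adjusted p = 2.04e-08). Npm1, not called in Vhl/Rassf1a Cre against GFP, had 586, 575 and 581 CPM in Vhl GFP against 796, 766 and 697 CPM in WT GFP (-0.38, SE 0.081, adjusted p = 0.000948). Also among the lowest were Wdr3 (-0.41), a processome protein, Grwd1 (-0.40), Wdr43 (-0.39), a processome protein that also acts on polymerase I transcription, Rrp12 (-0.38) and Nop58 (-0.38). All of these were called.

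The polymerase I genes were each lower in Vhl GFP, Polr1b at -0.29, Polr1e at -0.27, Polr1a at -0.23 and Rrn3 at -0.20 on the log2 scale. Rrn3 had 77.5, 74.5 and 74.2 CPM in Vhl GFP against 87.0, 86.2 and 86.5 CPM in WT GFP (adjusted p = 0.0076). It was called neither with Cre in any genotype nor in the other comparisons with WT GFP. Tcof1 was not called, with 82.9, 75.4 and 81.8 CPM in Vhl GFP against 88.5, 81.0 and 98.7 CPM in WT GFP (-0.16, SE 0.10, adjusted p = 0.273). Dcaf13, Nol6 and Noc4l were nearest to 0, at -0.01, -0.04 and -0.05. Together with Noc3l, these 3 were called neither here nor with Cre in Vhl or Vhl/Rassf1a cells. The comparisons of Vhl GFP with WT GFP and of Vhl/Rassf1a Cre with Vhl/Rassf1a GFP share no library. Both called 29 of the genes lower. Of the 38 that is 76.3%, where 72.9% of all 48 fell in Vhl/Rassf1a Cre cells, and of the 35 it is 82.9%, where 79.2% of all 48 were lower in Vhl GFP, so the shared share was near that of the whole list.

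In the other mutant GFP groups few of the 48 genes were called. In Vhl/Rassf1a GFP against WT GFP none of the 48 was called (edgeR; 2 at an unadjusted p under 0.05, 1 lower with no filter on low counts, 2 lower with a correction for GC content and 1 lower without both libraries that stood apart), where 11.5% of all genes were, and the median was -0.01. In Rassf1a GFP against WT GFP 1 of 48 was called, where 16.1% of all genes were and 9.39% were higher. That gene was Polr1b, with 35.8, 38.2 and 34.2 CPM in Rassf1a GFP against 32.4, 32.3 and 31.7 CPM in WT GFP (0.17, SE 0.052, adjusted p = 0.0308). Its call was lost without any 1 of WT GFP 1, 2 and 3, Rassf1a GFP 1 and Rassf1a GFP 2, with adjusted p-values up to 0.166. The direction of the calls depended on the processing, with 2 lower and 0 higher without Rassf1a GFP 1, 5 lower and 0 higher with a correction for GC content, 5 lower and 1 higher without both libraries that stood apart, and 2 lower and 1 higher by DESeq2.

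With Cre in the Vhl genotype, from the lower level of Vhl GFP, the genes moved in both directions. In Vhl Cre against Vhl GFP, 9 of 48 fell and 6 rose, a share of 31.2% beside 36.1% of all tested genes (17.4% higher and 18.7% lower), and the median was -0.05. The groups lay apart downwards for 21 genes and upwards for 8, beside 27.5% and 25.2% of all genes. The share called is near that of all genes. The count of 15 depended on the model and the filter, and was 9, all of them lower, with no filter on low counts and 27 (8 higher, 19 lower) with a correction for GC content. The 9 that fell were all among the 35 that fell in Vhl/Rassf1a Cre cells, and those 35 are most of the 48. They were Tcof1, Fbl, Dkc1, Utp20, Nat10, Wdr75, Polr1b, Ddx21 and Ltv1.

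Tcof1 had 50.7, 53.3 and 56.8 CPM in Vhl Cre against 82.9, 75.4 and 81.8 CPM in Vhl GFP, a fall of 0.58 on the log2 scale (SE 0.11, adjusted p = 0.000132). Fbl had 37.2, 39.2 and 42.3 CPM in Vhl Cre against 51.7, 52.5 and 51.7 CPM in Vhl GFP and fell by 0.39 (SE 0.062, adjusted p = 2.2e-05). Dkc1 had 28.9, 29.1 and 26.1 CPM in Vhl Cre against 37.3, 36.1 and 36.7 CPM in Vhl GFP and fell by 0.39 (SE 0.068, adjusted p = 8.54e-05). None of these groups overlapped, and for Tcof1, Fbl and Dkc1 the Vhl Cre libraries were the lowest of all 24. Dkc1 is X-linked, and in this comparison Xist, the RNA of the inactive X, fell by 0.62 (adjusted p = 0.00998) and 3 of 4 Y-linked genes rose, by 0.51 to 0.62. The call of Xist was lost without Vhl Cre 2, and the part of these genes in the level of Dkc1 was not tested. Utp20 fell by 0.24, Nat10 by 0.23, Wdr75, a processome protein that also acts on polymerase I transcription, by 0.21, Ddx21 by 0.16 and Ltv1, a late small-subunit factor, by 0.13. Wdr75 lost its call without each of the 3 Vhl GFP libraries and without Vhl Cre 2 or 3. Of the polymerase I genes Polr1b had 24.2, 23.7 and 22.1 CPM in Vhl Cre against 25.6, 25.4 and 27.8 CPM in Vhl GFP and fell by 0.17 (adjusted p = 0.0151), a call lost without Vhl GFP 3 or Vhl Cre 3 and with no filter on low counts. Polr1a was not called at -0.06, with 75.4, 75.3 and 72.3 CPM in Vhl Cre against 76.2, 77.3 and 79.6 CPM in Vhl GFP. Polr1e was not called at -0.06, with 15.2, 16.0 and 14.0 CPM in Vhl Cre against 17.1, 14.9 and 15.1 CPM in Vhl GFP. Nor was Rrn3 at 0.04, with 79.4, 76.8 and 76.4 CPM in Vhl Cre against 77.5, 74.5 and 74.2 CPM in Vhl GFP.

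The 6 genes that rose in Vhl Cre cells were Mrto4, Pes1, Nop14, Nob1, Gnl2 and Bms1, by 0.13 to 0.18 on the log2 scale. Pes1 had 87.7, 88.5 and 87.7 CPM in Vhl Cre against 80.5, 77.1 and 75.4 CPM in Vhl GFP and rose by 0.18 (SE 0.043, adjusted p = 0.00195). Mrto4, which holds the place of the stalk protein in the pre-60S particle, had 36.1, 38.5 and 38.7 CPM in Vhl Cre against 34.8, 31.7 and 33.5 CPM in Vhl GFP (adjusted p = 0.0343). Nop14, a processome protein, had 49.1, 46.4 and 44.0 CPM in Vhl Cre against 42.8, 39.8 and 40.7 CPM in Vhl GFP (adjusted p = 0.00414). In each of these genes the 3 Cre libraries lay above the 3 GFP libraries. Nob1 (0.17), Gnl2 (0.16) and Bms1 (0.13), a GTPase of the processome, rose as well. All 6 calls were lost with no filter on low counts. The call of Mrto4 was also lost without any 1 of Vhl GFP 2, Vhl GFP 3, Vhl Cre 2 and Vhl Cre 3. That of Nob1 was lost without any 1 of the 3 Vhl GFP libraries, Vhl Cre 2 and Vhl Cre 3, and that of Bms1 without Vhl GFP 2. Mrto4 has 2 pseudogenes of its name in the annotation, between which reads could be split. Mrto4 and Nop14 were also among the 35 that fell in Vhl/Rassf1a Cre cells.

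**Figure D4:**
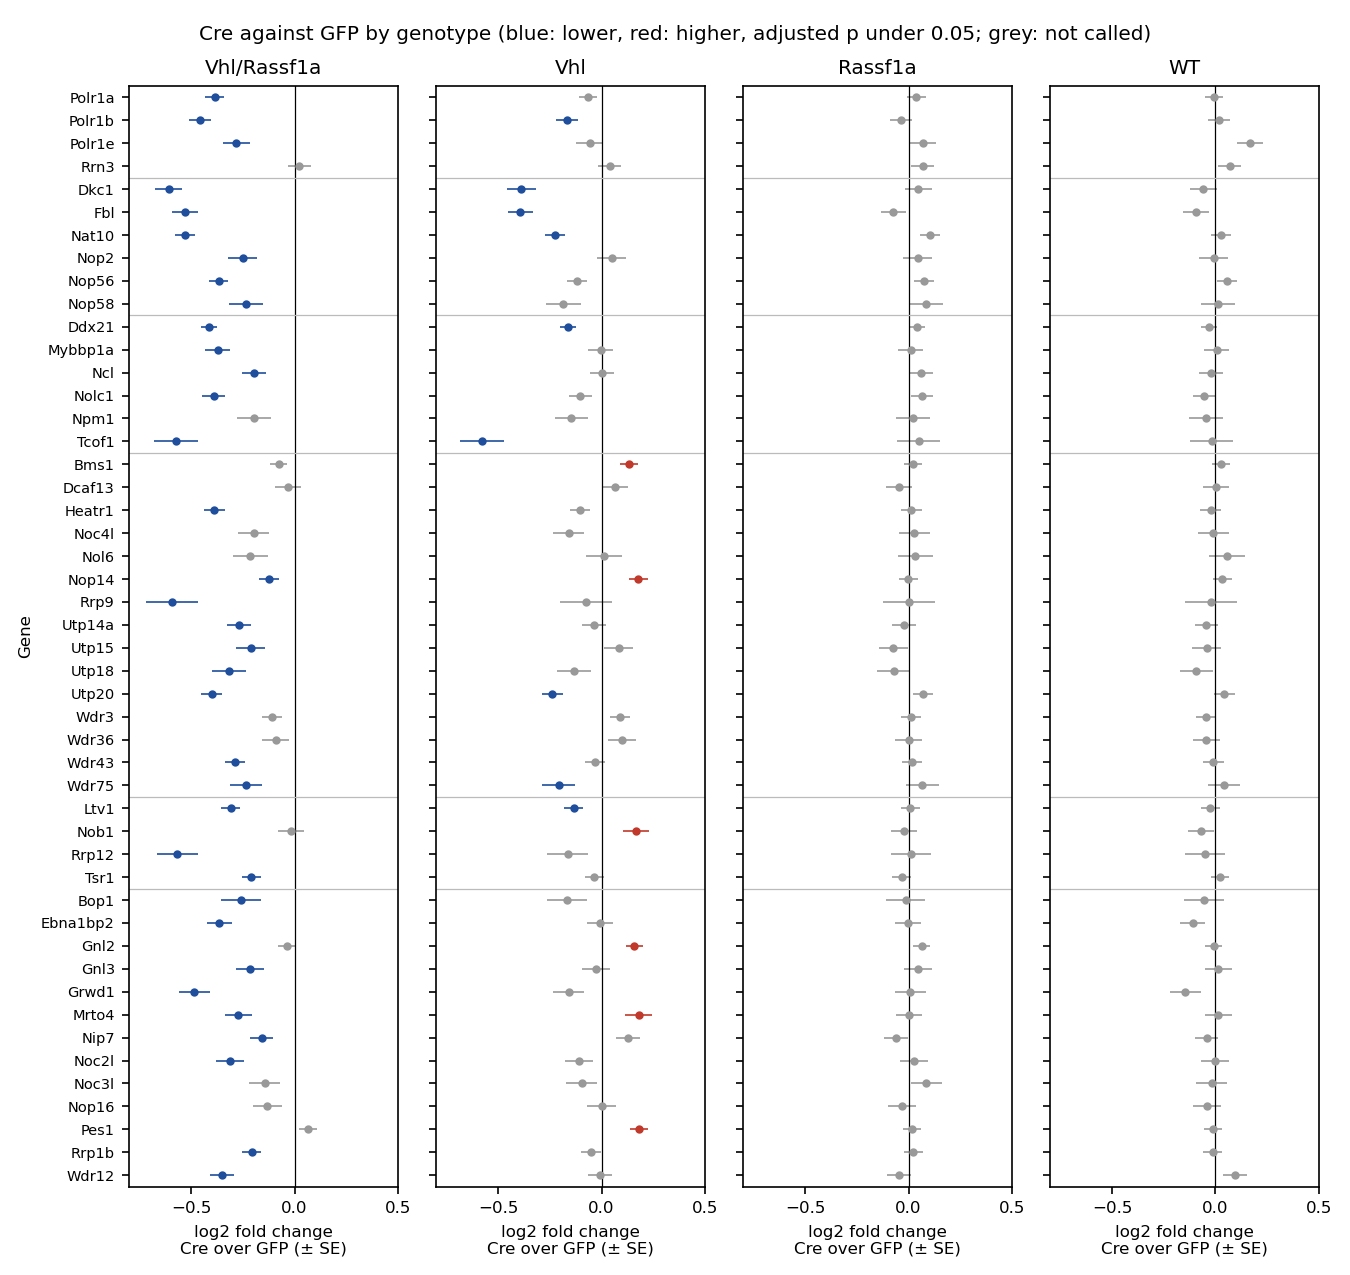
Log2 fold change of Cre over GFP (horizontal axis, with SE) of the 48 genes in Vhl/Rassf1a, Vhl, Rassf1a and WT cells, in the order of the heatmap. Blue marks genes called lower and red genes called higher, which are 35 and 0 in Vhl/Rassf1a, 9 and 6 in Vhl, and none in Rassf1a or WT.

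Set against WT Cre in place of their own GFP controls, both Vhl-deleted groups were low. These comparisons were added after the levels of the GFP groups had been seen, and they share the WT Cre libraries. In Vhl/Rassf1a Cre against WT Cre 35 of 48 were lower and none higher, with a median of -0.29, where 33.4% of all genes were called and 15.8% called lower. In Vhl Cre against WT Cre 41 of 48 were lower and none higher, with a median of -0.30, where 44.7% of all genes were called and 21.9% called lower. In Rassf1a Cre against WT Cre none was called (edgeR; 3 at an unadjusted p under 0.05, and 2 with only these groups in the fit or with a correction for GC content), where 12.4% of all genes were. Dkc1 had 28.9, 29.1 and 26.1 CPM in Vhl Cre against 54.0, 53.7 and 51.5 CPM in WT Cre, a difference of -0.92 (SE 0.068, adjusted p = 1.67e-10). Next in Vhl Cre were Tcof1 (-0.72), Fbl (-0.66), Utp20 (-0.64), Nop58 (-0.57), Ddx21 (-0.56), Rrp12 (-0.50) and Polr1e (-0.50). In Vhl/Rassf1a Cre they were Dkc1 (-0.65), Rrp12 (-0.54), Tcof1 (-0.54), Wdr12 (-0.49), Utp20 (-0.47) and Nat10 (-0.45).

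In Vhl/Rassf1a Cre against Vhl Cre 4 of the 48 genes were higher and none was lower, where 18.8% of all genes were called and 9.75% called higher, and the median was 0.05. The share of the 48 called was thus not above that of all genes. The 4 were Dkc1 with 32.6, 35.7 and 33.1 CPM in Vhl/Rassf1a Cre against 28.9, 29.1 and 26.1 CPM in Vhl Cre (0.27, SE 0.068, adjusted p = 0.00661), Fbl (0.25, adjusted p = 0.00529), Utp20 (0.17, adjusted p = 0.0203) and Ddx21 (0.13, adjusted p = 0.0269). The count was 9 (8 higher, 1 lower) with only these groups in the fit, 13 (12 higher, 1 lower) with a correction for GC content and 2 without Vhl Cre 2, Vhl Cre 3 or Vhl/Rassf1a Cre 1. Utp20 and Ddx21 lost their calls without any 1 of Vhl Cre 2, Vhl Cre 3, Vhl/Rassf1a Cre 1 and Vhl/Rassf1a Cre 2.

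In WT and Rassf1a cells no gene of the list was called with Cre. In Rassf1a Cre against Rassf1a GFP the 48 estimates ran from -0.07 to 0.10 with a median of 0.02, and 0.392% of all genes were called (edgeR; 1 of the 48 at an unadjusted p under 0.05, and 0 called by DESeq2). In WT Cre against WT GFP they ran from -0.15 to 0.17 with a median of -0.01, and 1.26% of all genes were called (edgeR; 1 of the 48 at an unadjusted p under 0.05, and 0 called by DESeq2). The 95% intervals of the 48 genes reached from -0.26 to 0.27 in Rassf1a cells and from -0.31 to 0.30 in WT cells, and the SE of a single gene was 0.039 to 0.13 (median 0.061) in Rassf1a cells and 0.039 to 0.13 (median 0.061) in WT cells. For the polymerase I genes in Rassf1a cells the log2 fold changes were 0.04 for Polr1a, -0.04 for Polr1b, 0.07 for Polr1e and 0.07 for Rrn3. In WT cells they were -0.01, 0.02, 0.17 and 0.07 for the same genes. Polr1b had 35.5, 36.9 and 33.2 CPM in Rassf1a Cre against 35.8, 38.2 and 34.2 CPM in Rassf1a GFP, and 33.0, 32.4 and 32.2 CPM in WT Cre against 32.4, 32.3 and 31.7 CPM in WT GFP.

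Whether the change with Cre differed between genotypes was tested as a difference of log2 fold changes in the same fit. The change in Vhl/Rassf1a cells was lower than in Vhl cells for 16 of the 48 genes (2.65% of all genes called lower, 6.09% called), lower than in Rassf1a cells for 26 (7.1% and 15%) and lower than in WT cells for 22 (7.4% and 14.8%), and higher for none. These tests share the Vhl/Rassf1a libraries. The difference to Vhl cells was -0.45 for Mrto4 (SE 0.092, adjusted p = 0.00339), -0.37 for Mybbp1a, -0.32 for Polr1a (SE 0.063, adjusted p = 0.00266), -0.30 for Nop14, -0.30 for Nat10 and -0.25 for Ddx21. The count of 16 was 8 with no filter on low counts, which also ended the calls of Ddx21, Nat10 and Nop14, 33 with a correction for GC content and 25 without libraries Vhl/Rassf1a GFP 2 and Rassf1a GFP 1. Without both libraries the differences to Rassf1a and WT cells were called for 33 and 32 genes, all lower. The difference to WT cells had its smallest adjusted p at Nat10, at -0.56 (SE 0.069, adjusted p = 3.93e-06). These differences rest on the GFP groups as well as on the Cre groups, and the summed levels of the 48 genes were 3900.2 CPM in Vhl/Rassf1a Cre and 3668 CPM in Vhl Cre.

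Between Vhl and WT cells the change with Cre differed for 7 of 48 genes (23.2% of all genes called), lower for 5 and higher for 2. The share of the 48 called was below that of all genes. Tcof1 differed by -0.56 (SE 0.15, adjusted p = 0.00755), Dkc1 by -0.33 (adjusted p = 0.0137), Fbl by -0.30 (adjusted p = 0.0142), Utp20 by -0.28 (adjusted p = 0.0052) and Nat10 by -0.26 (adjusted p = 0.00863). Gnl2, named here after its value was seen, differed upwards by 0.17 (adjusted p = 0.0413). Pes1 also differed upwards, by 0.19 (adjusted p = 0.0246), a call lost without any 1 of WT GFP 1, WT GFP 3, WT Cre 3 and Vhl GFP 3, and that of Fbl was lost without WT Cre 2. The calls of Pes1, Gnl2 and Nat10 were lost with no filter on low counts. Between Rassf1a and WT cells none of the 48 differed (edgeR; 0 at an unadjusted p under 0.05, and 0 by DESeq2), where 0.00603% of all genes did.

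Other genes of the same pathway were set beside the 48 as lists written from general knowledge. Earlier results of these data were known when the lists were written, so they are not an independent check. In Vhl/Rassf1a Cre against Vhl/Rassf1a GFP, where 14.8% of all genes were called lower, 17 of 36 other small-subunit factors fell and 1 rose (median -0.16), and 13 of 42 other large-subunit factors fell and none rose (median -0.13). Of other snoRNP factors 3 of 10 fell and 1 rose, and of other polymerase I machinery 3 of 16 fell, or 18.8%, near the share of all genes. Mdn1, the AAA ATPase that remodels pre-60S particles, fell by 0.61 (SE 0.066, adjusted p = 1.98e-07), Aatf, which acts early in small-subunit assembly, by 0.57, Rcl1, a processome protein, by 0.57, Urb1, a pre-60S factor, by 0.50, and Rrp15, a nucleolar factor of both subunits, by 0.45. Pwp2, a processome scaffold, fell by 0.37, Ruvbl1, an ATPase of snoRNP assembly, by 0.38, Gar1, a core protein of H/ACA snoRNPs, by 0.36, and Shq1, a chaperone of dyskerin, by 0.33. Among polymerase I genes Polr1h fell by 0.38, the shared subunit Polr2h by 0.29 and Ubtf, which binds and opens rRNA genes, by 0.24 (SE 0.063, adjusted p = 0.00551). The calls of Ubtf and Shq1 were lost with only these groups in the fit.

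In Vhl GFP against WT GFP, where 14.9% of all genes were called lower, so were 22 of 36 small-subunit factors (median -0.20), 23 of 42 large-subunit factors with 1 higher (median -0.19) and 6 of 10 snoRNP factors. Of other polymerase I machinery 3 of 16 genes were lower, or 18.8%, near the share of all genes. With Cre in Vhl cells, where 18.7% of all genes were called lower and 17.4% higher, the lists were mixed, with 3 lower and 5 higher small-subunit factors and 3 lower and 6 higher large-subunit factors, and medians of 0.00 and 0.03. There Las1l, which acts in cleaving the spacer before 28S rRNA, rose by 0.39, Ddx10, a helicase of the processome, by 0.38, Polr1g by 0.39, Riok1, a kinase of late small-subunit maturation, by 0.30, Pak1ip1 by 0.22 and Nufip1, a snoRNP assembly factor, by 0.18. Rcl1 fell by 0.43, Mdn1 by 0.33, Shq1 by 0.28, Polr1h by 0.24, Ubtf by 0.22 and Ruvbl1 by 0.20 in the same comparison. Of these, Polr1h and Shq1 lost their calls without Vhl GFP 1 or Vhl Cre 2, Ubtf without Vhl GFP 3, and Nufip1 without any 1 of Vhl GFP 1, Vhl GFP 2, Vhl Cre 1 and Vhl Cre 3. None of these genes was called in WT or Rassf1a cells with Cre.

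**Figure D5:**
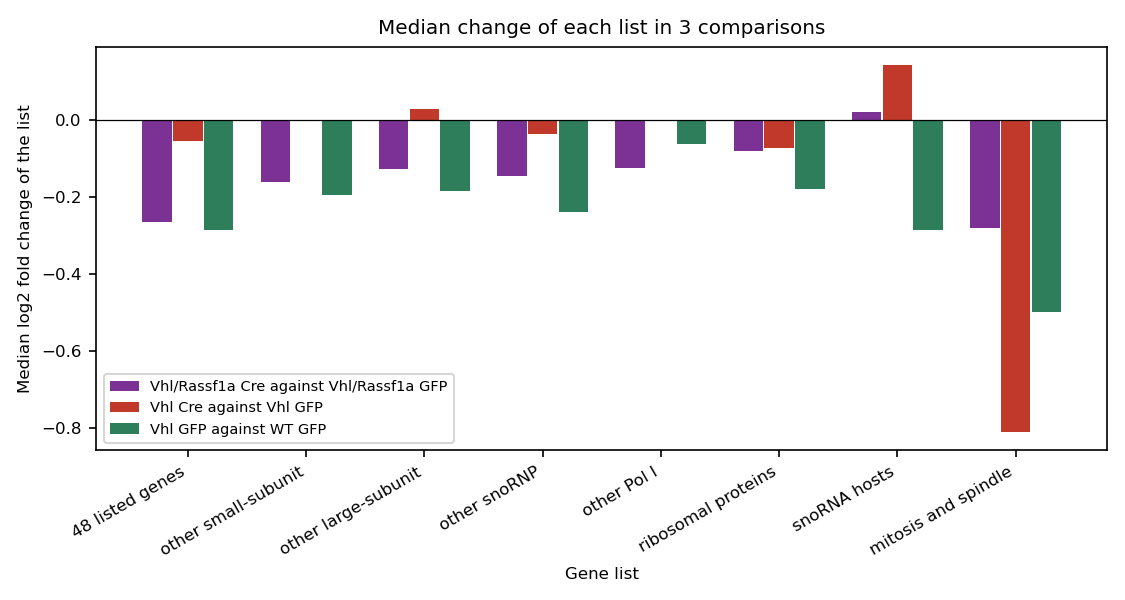
Median log2 fold change (vertical axis) of the 48 genes and of 7 other gene lists (horizontal axis) in Vhl/Rassf1a Cre against its GFP control, Vhl Cre against its GFP control, and Vhl GFP against WT GFP. The 48 genes stand at -0.26, -0.05 and -0.29, and the mitosis and spindle genes at -0.28, -0.81 and -0.50.

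Myc, the transcription factor best known to raise these genes, was not called lower in Vhl/Rassf1a Cre cells. It had 62.6, 61.1 and 62.1 CPM in Vhl/Rassf1a Cre against 54.5, 66.9 and 53.7 CPM in Vhl/Rassf1a GFP (0.08, SE 0.085, adjusted p = 0.499), and was called higher, at 0.20, without libraries Vhl/Rassf1a GFP 2 and Rassf1a GFP 1. With Cre in Vhl cells Myc rose by 0.58 (SE 0.086, adjusted p = 9.43e-06), with 52.4, 58.1 and 61.4 CPM in Vhl Cre against 36.6, 38.4 and 39.5 CPM in Vhl GFP. In Vhl GFP against WT GFP it was lower, at -0.76 (SE 0.086, adjusted p = 3.59e-07). Mxi1 encodes a partner of Max that opposes Myc and is a known target of hypoxia-inducible factors. It had 50.2, 51.2 and 51.6 CPM in Vhl/Rassf1a Cre against 13.6, 12.9 and 14.2 CPM in Vhl/Rassf1a GFP and rose by 1.91 (SE 0.062, adjusted p = 1.49e-16). In Vhl cells it had 58.7, 56.8 and 61.1 CPM in Vhl Cre against 19.0, 16.4 and 17.1 CPM in Vhl GFP and rose by 1.75 (SE 0.061, adjusted p = 4.4e-16). Between GFP groups Mxi1 was higher in Vhl GFP than in WT GFP by 0.44, and also in Rassf1a GFP by 0.34. In Rassf1a cells with Cre the log2 fold changes of Mxi1 and Myc were -0.13 and 0.02, and in WT cells 0.02 and -0.04, none of them called. Mxd3, another Max partner, fell by 0.59 in Vhl/Rassf1a Cre cells and by 1.16 in Vhl Cre cells, and Mlxip, of the wider Myc and Max network, fell by 0.19 in Vhl/Rassf1a Cre cells, a call lost with only these groups in the fit. The part of these genes in the levels of the 48 was not tested.

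Genes of mitosis and the spindle moved in the same comparisons but not in the same proportion. Of 25 such genes, 19 fell in Vhl/Rassf1a Cre against its GFP control (median -0.28), all 25 fell in Vhl Cre against Vhl GFP (median -0.81) and all 25 were lower in Vhl GFP than in WT GFP (median -0.50), beside 14.8%, 18.7% and 14.9% of all genes called lower. Their summed level was 1470.3 ± 16.0 CPM in Vhl/Rassf1a Cre against 1793 ± 53.7 in Vhl/Rassf1a GFP, 780.3 ± 38.3 in Vhl Cre against 1335 ± 12.5 in Vhl GFP, and 1873 ± 79.1 in WT GFP (SD, n = 3 each). In Vhl Cre cells the mitotic sum stood at its lowest of the 8 groups, and so did the sum of the 48 genes. The latter averaged 3668 CPM in Vhl Cre and 3838 CPM in Vhl GFP, and the median of the 48 genes moved by -0.05 between them. The part of proliferation in the levels of the 48 genes was not tested.

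Markers of other cells moved with some of these comparisons. Of 8 epithelial markers 5 were tested, and they summed to 194 to 201 CPM in Vhl/Rassf1a Cre against 75.5 to 97.2 in Vhl/Rassf1a GFP, and to 126 to 147 CPM in Vhl Cre against 37.9 to 38.9 in Vhl GFP, where all 5 tested were higher. In WT GFP they summed to 75.9 to 94.5 CPM. Most of this was Krt19, at 33.2 to 182 CPM over all libraries, while Cdh1, which encodes E-cadherin, was at most 0.518 CPM and at 0 in at least 1 library. Macrophage markers summed to 7.77 to 8.61 CPM in Vhl/Rassf1a Cre against 5.27 to 6.79 in Vhl/Rassf1a GFP, and to 7.06 to 7.67 CPM in Vhl GFP against 7.01 to 8.27 in WT GFP. Endothelial markers summed to 15.2 to 16.3 CPM in Vhl/Rassf1a Cre against 15.1 to 15.9 in Vhl/Rassf1a GFP, and to 11.9 to 13.0 CPM in Vhl GFP against 15.1 to 15.8 in WT GFP. In Vhl Cre they summed to 14.1 to 15.3 CPM against 11.9 to 13.0 in Vhl GFP, with 4 higher and 1 lower of 7 tested. Of all genes, 17.4% were called higher and 18.7% lower in Vhl Cre against Vhl GFP. Of 8 proximal tubule markers 3 were tested. The list summed to 269 to 279 CPM in Vhl/Rassf1a Cre against 332 to 355 in Vhl/Rassf1a GFP, and to 187 to 228 CPM in Vhl GFP against 312 to 349 in WT GFP, with no overlap in either comparison. Most of this was Aqp1, a water channel, at 159 to 356 CPM over all libraries, which was called lower in both comparisons, while Lrp2 and Cubn were called higher in the first. Macrophage markers Ptprc and Lyz2 and the endothelial marker Cdh5 were at 0 in at least 1 library and at most 0.702 CPM in any. In Vhl GFP against WT GFP 7 of 12 fibroblast markers were higher and 2 lower, where 32.1% of all genes were called. Sex-linked genes differed there too, with Xist higher by 0.76 and 3 of 4 Y-linked genes lower, which touches the X-linked Dkc1 and Utp14a. In Vhl/Rassf1a GFP against WT GFP, where Xist was higher by 0.90 and 4 of 4 Y-linked genes were lower, Dkc1 was not called (-0.10, adjusted p = 0.398) and neither was Utp14a (0.04). The part of these markers in the levels of the 48 genes was not tested.

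Counts are per gene, and 4 of the 48 genes (Nop58, Ncl, Gnl3 and Nop56) overlap annotated small RNAs on their own strand, while 20 overlap an antisense gene. Since no source states whether the counting used strand, reads of a gene and of its antisense partner may not have been told apart.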

How the data were processed

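Per the labels' protocols, a NucleoSpin RNA kit gave the RNA and a TruSeq Stranded kit the libraries. The submitters' processing notes name Trimmomatic 0.38, STAR 2.5.2b and GRCm38. How reads were counted, with which strand setting and on which annotation release, is not given in the sources used here. The values deposited by the authors are raw read counts per Ensembl gene, with no normalization, and 0 columns lacked a sample. A symbol was matched for 45143 of 45706 gene identifiers. The series' design note speaks of single renal proximal tubule cells, whereas the samples' labels name embryonic fibroblasts and were followed.

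The 8 groups of 3 libraries (29934173 to 55849586 counts each) were taken from the labels. edgeR 4.0.16 in R 4.3.3 was run on all 24 libraries with TMM normalization, and kept 16573 genes by its expression filter (minimum count 10, minimum total 15). Quasi-likelihood tests with 16 residual degrees of freedom gave 16 comparisons, of which the 4 between Cre groups were added after the levels of the GFP groups had been seen. P-values were adjusted by Benjamini and Hochberg over all genes tested in a comparison, with a threshold of 0.05. The SE is the log2 fold change over the square root of the F statistic, and intervals are 95%. CPM used the TMM library sizes, and RPKM divided it by merged exon length from a GENCODE annotation of GRCm38, which also gave gene positions. The fit was also run on simulated data, which lacked the GC-related shifts between libraries. Its outcome is not given, and no result here rests on it.

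Promoters came from RefSeq on GRCm38.p6, matched by symbol for 39 of 48 genes. Of 302 genes in the companion lists, 297 were in the table and 277 passed the filter. The members and lists were chosen with earlier results of these data known. Genes given in full were the 4 polymerase I genes, the 8 highest and 8 lowest called members of a comparison, the 6 with the smallest adjusted p in a difference of Cre changes, the 3 highest and 3 lowest per length, and up to 3 called genes of a companion list. Alternatives were DESeq2 1.42.0 (its Wald test, or its size factors in edgeR), no filter on low counts, only the groups compared, a replicate block, offsets corrected for GC content, and each library left out.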

Additional observations from a re-analysis of the deposited data

Results flagged for a closer look

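The results singled out here are genes whose change with Cre differed between genotypes by a test of the difference itself, in edgeR's quasi-likelihood fit with Benjamini-Hochberg adjustment, and each is given as a difference of log2 fold changes. In Vhl/Rassf1a minus Vhl cells the difference was -0.45 for Mrto4, -0.37 for Mybbp1a, -0.32 for Polr1a, -0.30 for Nop14, -0.30 for Nat10 and -0.25 for Ddx21. In Vhl/Rassf1a minus Rassf1a cells it was -0.66 for Dkc1, -0.63 for Nat10, -0.47 for Utp20, -0.46 for Ddx21, -0.44 for Nop56 and -0.43 for Polr1a. In Vhl/Rassf1a minus WT cells it was -0.56 for Nat10, -0.48 for Polr1b, -0.44 for Utp20, -0.42 for Nop56, -0.38 for Ddx21 and -0.38 for Polr1a. In Vhl minus WT cells it was -0.56 for Tcof1, -0.33 for Dkc1, -0.30 for Fbl, -0.28 for Utp20, -0.26 for Nat10 and 0.19 for Pes1. All values given here that involve Vhl/Rassf1a cells are below 0. Those against Vhl cells rest also on the Vhl GFP libraries, which were already lower than WT GFP for most of the 48 genes. Between Vhl and WT cells Pes1 is above 0, as is Gnl2, which is not among the 6 with the smallest adjusted p. Of the 48 genes, Vhl/Rassf1a cells differed from Vhl cells in 33.3%, from Rassf1a cells in 54.2% and from WT cells in 45.8%. The shares of all genes were 6.09%, 15% and 14.8%. In Vhl minus WT cells 14.6% were called, below the 23.2% of all genes. With no filter on low counts Ddx21, Nat10 and Nop14 lost their calls in Vhl/Rassf1a minus Vhl, and Pes1, Gnl2 and Nat10 in Vhl minus WT. In the latter, Pes1 and Fbl also lost their calls without certain single libraries.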

How the results depend on the processing

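Counts of called genes among the 48 moved by more than 1.5 times as follows. With Cre in Vhl cells 15 became 9 with no filter on low counts, 23 with only the groups compared in the fit and 27 with offsets corrected for GC content. The Vhl minus WT difference, 7 as reported, gave 4, 11 and 15 under the same settings, and the Vhl/Rassf1a minus Vhl difference, 16 as reported, gave 8, 9 and 33. The last became 25 when both libraries that stood apart, Vhl/Rassf1a GFP 2 and Rassf1a GFP 1, were left out. Rassf1a GFP against WT GFP, 1 as reported, gave 3 by DESeq2's Wald test, 0 with only the groups compared, 5 with GC correction and 6 without both libraries. Vhl/Rassf1a GFP against WT GFP, 0 as reported, gave 1 with no filter, 2 with GC correction and 1 without both libraries. Rassf1a Cre against WT Cre, 0 as reported, gave 2 with only the groups compared and 2 with GC correction. Vhl/Rassf1a Cre against Vhl Cre, 4 as reported, gave 9 (8 higher, 1 lower) and 13 (12 higher, 1 lower) under these settings. The cause was not tested.

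With libraries left out, the counts ran from 10 to 15 with Cre in Vhl cells, 5 to 7 for Vhl minus WT, 12 to 25 for Vhl/Rassf1a minus Vhl, 0 to 6 in Rassf1a GFP against WT GFP, 0 to 1 in Vhl/Rassf1a GFP against WT GFP and 2 to 4 in Vhl/Rassf1a Cre against Vhl Cre. Medians of the 48 genes ran from -0.29 to -0.27 with Cre in Vhl/Rassf1a cells, -0.31 to -0.26 in Vhl/Rassf1a Cre against WT Cre, -0.33 to -0.29 in Vhl Cre against WT Cre, -0.029 to 0.013 in Rassf1a Cre against WT Cre, -0.049 to -0.00043 in Rassf1a GFP against WT GFP, -0.24 to -0.20 for Vhl/Rassf1a minus Vhl, -0.33 to -0.28 for Vhl/Rassf1a minus Rassf1a, -0.071 to -0.033 for Vhl minus WT and 0.015 to 0.055 for Rassf1a minus WT. With no filter on low counts the median was -0.33 in Vhl Cre against WT Cre, -0.32 in Vhl GFP against WT GFP, -0.053 in Rassf1a GFP against WT GFP, -0.32 for Vhl/Rassf1a minus Rassf1a and 0.062 for Rassf1a minus WT.

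Single genes whose log2 fold change with Cre changed sign were all uncalled. In WT cells Mxi1 was -0.00071 with no filter, and with libraries left out the values ran from -0.018 to 0.068 for Mxi1, -0.018 to 0.014 for Polr1a and -0.11 to 0.0029 for Myc. In Vhl cells Trp53 was 0.0024 with only the groups compared, and with libraries left out the values ran from -0.042 to 0.035 for Trp53 and -0.099 to 0.010 for Polr1e. In Rassf1a cells they ran from -0.074 to 0.0079 for Polr1b, -0.036 to 0.12 for Myc and -0.021 to 0.11 for Trp53, and in Vhl/Rassf1a cells from -0.051 to 0.074 for Rrn3. The lowest value of Rrn3, -0.051, was without both libraries that stood apart.

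With the replicate number as a block, the counts of called genes were 34 in Vhl/Rassf1a, 13 in Vhl, 0 in Rassf1a and 0 in WT cells with Cre, and no count moved by more than 1.5 times. Correlations of same-numbered libraries ran from -0.092 to 0.035, and 3 of 12 correlated best with their own number, so the numbers were not taken to pair the libraries. Over named genes and all settings, 82 values lost their call with the same direction, 1 (Myc in Vhl/Rassf1a cells) gained one and 1991 kept their direction and side of the threshold. For the 48 genes the SE of a log2 fold change in Vhl Cre against Vhl GFP was 0.040 to 0.13, which limits what a change near 0 could show.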

Other observations

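Single targets of p53, which is known to respond when ribosome production is disturbed, moved in both directions. The p53 list summed to 3201 to 3225 CPM in Vhl/Rassf1a Cre against 2543 to 2819 in Vhl/Rassf1a GFP. In WT Cre it was 3172 to 3258 CPM against 3019 to 3047 in WT GFP. In Rassf1a Cre it was 2935 to 2970 CPM against 2699 to 2892 in Rassf1a GFP. These groups did not overlap, while Vhl Cre (2812 to 2922 CPM) overlapped Vhl GFP (2741 to 2874 CPM). No test was made of these sums. In Vhl/Rassf1a Cre against Vhl/Rassf1a GFP, Mdm2, the ubiquitin ligase of p53, rose by 0.41, Cdkn1a, an inhibitor of the cell cycle, by 0.31 and Ccng1 by 0.40 on the log2 scale. Ccng1 was at 0.25 without library Vhl/Rassf1a GFP 2 and not called with only these groups in the fit. In Vhl Cre against Vhl GFP Btg2, an antiproliferative gene, fell by 0.55, Zmat3 by 0.26 and Aen by 0.22. In WT Cre against WT GFP, where no ribosome biogenesis gene was called, Mdm2 rose by 0.24. Trp53, which encodes p53, was called with Cre in no genotype (edgeR), at -0.10 in Vhl/Rassf1a, -0.00 in Vhl, 0.03 in Rassf1a and 0.05 in WT cells. Ubtf was not called in Rassf1a (-0.11) or WT (-0.05) cells.

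Of 77 ribosomal protein genes tested, 2 fell and none rose in Vhl/Rassf1a Cre cells (median -0.08; 2.60% of the list, beside 14.8% of all genes called lower), with Rpl3 at -0.24 and Rpl10a at -0.23, the second of which lost its call without library Vhl/Rassf1a GFP 2 (at -0.12) or without any 1 of the 3 Cre libraries. In Vhl Cre against Vhl GFP 11 fell and none rose (median -0.07), or 14.3% of the list beside 18.7% of all genes called lower, among them Rpl10a by 0.33, Rpl3 by 0.31 and Rps4x by 0.20. In Vhl GFP against WT GFP 29 were lower and none higher (median -0.18), or 37.7% beside 14.9% of all genes called lower. Of 10 host genes of small nucleolar RNAs, Snhg8 rose by 0.30 while Snhg5 and Snhg17 fell by 0.31 and 0.30 in Vhl/Rassf1a Cre cells, the call of Snhg8 being lost without Vhl/Rassf1a GFP 1 or Vhl/Rassf1a Cre 1. The calls of Snhg8 and Rpl10a there were also lost with only these groups in the fit. In Vhl Cre cells Snhg8 rose by 0.42, Snhg12 by 0.39 and Snhg6 by 0.27, the last not called without Vhl Cre 1. Among mitotic genes, the cyclins Ccnb2 and Ccnb1 fell by 1.07 and 0.99 and the checkpoint kinase Bub1b by 0.95 in Vhl Cre cells. In Vhl/Rassf1a Cre cells Bub1b fell by 0.44, the proliferation marker Mki67 by 0.44 and the topoisomerase Top2a by 0.39.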
